A study of Mus musculus with 18 samples.

Results

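The heat shock chaperones described here are 10 genes: Hspa1a, Hspa1b, Hspa8, Hsph1, Dnajb1, Bag3, Hsp90aa1, Hspb1, Hspd1 and Hspe1. They were chosen by name and found in the count table by their Ensembl identifiers, 10 genes of 54281, and all 10 had enough counts to be tested. The measurements are RNA-seq of whole descending aortas, with the layers of the wall not separated, from 18 male C57BL/6 mice. HGPS mice model Hutchinson–Gilford Progeria Syndrome and carry the genotype LMNAG609G, a change in the mouse's own Lmna gene through which progerin, a shortened Lamin A, is made. The HGPS group held 6 animals of 64 to 75 d. The 2-mo WT group held 6, of which 5 were 62 d old and WT mouse 6 was 95 d old. The 24-mo WT group held 6 animals of 609 to 762 d. The labels do not give the zygosity of the HGPS mice, while the paper's Introduction defines its HGPS mouse as homozygous (Lmna G609G/G609G). HGPS mice carry the change in every cell that uses the gene, so the aorta is not the only tissue affected. Lmna itself was measured at 577 ± 82.3 CPM in HGPS, 416 ± 60.7 in 2-mo WT and 418 ± 73.2 in 24-mo WT (SD, n = 6 each), and since the allele is a base change in a gene that is still transcribed, this level does not check the labels.

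Heat shock proteins are chaperones that bind unfolded proteins. HSP70 proteins hold unfolded stretches and release them in a cycle driven by ATP, J-domain proteins such as Dnajb1 bring clients to them, and exchange factors such as Hsph1 and Bag3 reset the cycle. HSP90 proteins finish the folding of signalling proteins, small heat shock proteins such as Hspb1 keep damaged proteins soluble, and Hspd1 with its lid Hspe1 forms the folding chamber of the mitochondrial matrix. When unfolded proteins build up in the cytosol, heat shock factor 1 (Hsf1) binds repeated GAA and TTC units in promoters and switches on the inducible members, among which Hspa1a and Hspa1b react most sharply.

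The promoter sequences show how differently placed these units are among the members. A motif of 3 alternating units, GAANNTTCNNGAA or its other form TTCNNGAANNTTC (each the reverse complement of the other, N any base), was searched on both strands in RefSeq promoter windows of GRCm38.p6 that run from 250 bases before to 50 after a gene's start. It was present in 198 of 32851 windows (0.603%). Of the 10 members, 8 had a window, 11 windows in all, and 3 of those 8 held the motif: Hspd1, Hspe1 and Hsph1. Hspd1 and Hspe1 lie head to head on chromosome 1, and their windows share one stretch of 4 alternating units, in which 2 matches of the motif overlap. It is shown from both sides because these are the 2 members that were higher in HGPS, with the units in capitals.
Hspe1, plus strand, chr1:55088053-55088082, 95 to 66 bases before its start: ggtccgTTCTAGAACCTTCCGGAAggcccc
Hspd1, minus strand, chr1:55088053-55088082, 150 to 121 bases before one of its 2 starts: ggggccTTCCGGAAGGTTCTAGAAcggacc
This stretch lies upstream of the first exon of Hspe1 in GENCODE M21 and also within the first exon of a longer Hspd1 transcript. In Hsph1 the match, on the minus strand of chromosome 5 at 149636288 to 149636300, lay past the start, inside the transcript: TTCTGGAAAGTTC. The shorter motif of 2 units, GAANNTTC or TTCNNGAA, was in 4946 of 32851 windows (15.1%) and in 7 of the 8 members with a window, Dnajb1 being the exception. Hspa1a and Hspa1b each held it 1 time, and the 100 bases around it were identical in both genes, as were 296 of the 300 bases of the window.
Hspa1a, minus strand, chr17:34972187-34972286, and Hspa1b, minus strand, chr17:34959269-34959368, 130 to 31 bases before the start: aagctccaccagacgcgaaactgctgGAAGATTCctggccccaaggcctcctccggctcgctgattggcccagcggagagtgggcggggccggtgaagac
Hspb1, plus strand, chr5:135887789-135887858, 130 to 61 bases before the start: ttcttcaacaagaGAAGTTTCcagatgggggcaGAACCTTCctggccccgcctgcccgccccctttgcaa
These matches describe the letters only, and factor binding was not measured.

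The authors' estimated counts were scaled to CPM, counts relative to the size of each library as set by TMM, and genes were tested together in edgeR's quasi-likelihood fit with Benjamini-Hochberg adjustment over the 15210 genes tested. "Rose" and "fell" are used for an adjusted p under 0.05. The cut-offs of the study were stricter (adjusted p under 0.001, with a change of at least 1.5-fold), and calls by these are given too. Each mouse had between 12413229 and 30844775 counts in all, and no 2 mice of a group agreed within sampling noise (chi-square per degree of freedom of at least 8.07 over 45 pairs). All 6 smooth muscle markers were expressed in every mouse, as an aortic wall should show. Fewer cells of a type and less RNA per cell cannot be told apart in such bulk samples. The labels also number the samples: HGPS mice 1 to 3 are numbers 19, 22 and 23, HGPS mice 4 to 6 are 48, 49 and 50, the 2-mo WT mice are 41 to 46 and the 24-mo WT mice are 24 to 34. What the number marks is not stated.

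Per length of transcript, Hspa8 was the most abundant member in all 3 groups. Hspa8, the HSP70 protein that all cells make without stress, was at 919 ± 189 CPM per kb in HGPS, 837 ± 232 in 2-mo WT and 903 ± 220 in 24-mo WT (SD, n = 6 each). Its range did not overlap that of the next member, Hspb1, in any group. Hspb1, at 267 ± 56.7, 284 ± 132 and 324 ± 90.3 CPM per kb, came before Hsp90aa1, the inducible cytosolic HSP90, at 168 ± 20.5, 169 ± 37.8 and 171 ± 36.0 CPM per kb, and the ranges of these 2 overlapped in 2-mo WT only. Hspe1 and Hspd1 followed in HGPS and in the reverse order in 24-mo WT, with overlapping ranges. In 2-mo WT, Hspa1a (81.5 ± 58.6 CPM per kb) and Hspa1b (75.0 ± 62.6) stood between Hsp90aa1 and Hspd1, with ranges that overlapped all of these. Dnajb1 and Bag3 were the 2 lowest in HGPS and 24-mo WT, at 15.8 to 17.7 CPM per kb on average, and Bag3 was the lowest in both WT groups.

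**Figure D1:**
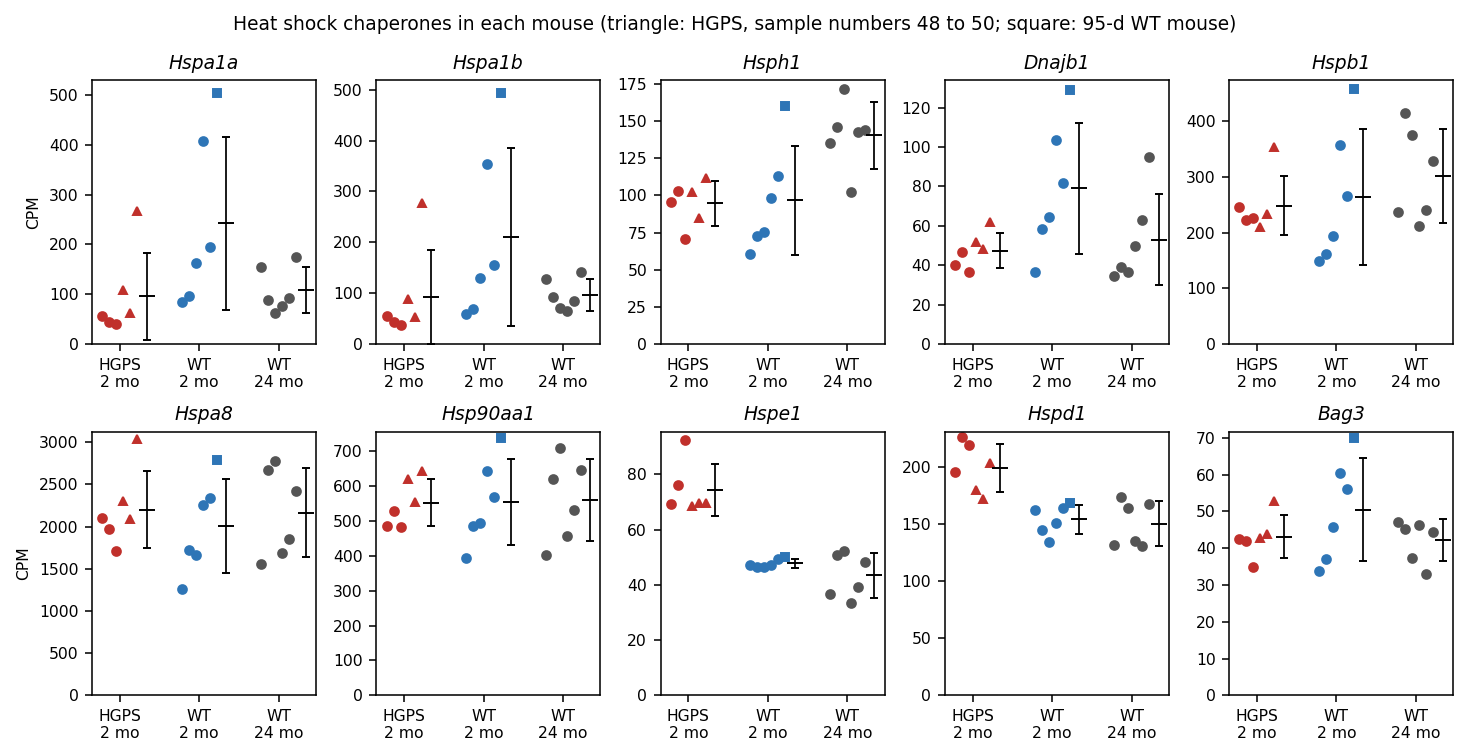
Expression of each heat shock chaperone in CPM (vertical axis, from 0, its own scale in each panel) in the HGPS, 2-mo WT and 24-mo WT groups, with 6 points each; a point is 1 mouse (triangles mark HGPS mice 4 to 6), and the black bar gives the mean and SD, cut at 0 for Hspa1b in HGPS. The HGPS points of Hspe1 and Hspd1 lie above all 2-mo WT points, the Hspa1a and Hspa1b points spread widely in both groups at 2 mo, and the 95-d WT mouse (square) is the highest of its group for all 10 members.

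In HGPS against 2-mo WT the genotypes were compared at a labelled age of 2 mo, although WT mouse 6 was 95 d old. The 2 subunits of the mitochondrial chaperonin rose and 2 cytosolic members, Hspa1a and Dnajb1, fell. The other 6 members did not pass the test. Of all genes tested, 22% were higher and 21.2% lower at an adjusted p under 0.05, so 2 and 2 of 10 members are close to the share among all genes. The median log2 fold change was -0.06 over the 10 members and 0.0026 over all genes. One member, Hspe1, passed the cut-offs of the study in edgeR's test, as 9.5% of genes (1445) did. The paper applied the same cut-offs with DESeq2 and reported more genes. The 2 groups did not overlap for 2 members, Hspe1 and Hspd1, and for 21.9% of all genes.

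Hspe1, the lid of the chaperonin, ranged from 68.6 to 92.5 CPM in HGPS (median 69.7) and from 46.4 to 50.2 CPM in 2-mo WT (median 47.1). All HGPS values were above the 2-mo WT range, and the 2-mo WT values were tightly grouped. The log2 fold change was 0.64 ± 0.10 (SE; adjusted p = 6.95e-05), or 1.56-fold. An exact permutation test of 6 against 6 mice gave p = 0.00216, the smallest it can give, and 0.0108 after adjustment over the 10 members. Without HGPS mouse 3, the highest, the log2 fold change was 0.56 (adjusted p = 0.000216) and Hspe1 fell short of the 1.5-fold cut-off, while in each of the 18 fits that left out 1 mouse it stayed past an adjusted p of 0.05. Hspd1, the chamber itself, ranged from 172 to 226 CPM in HGPS (median 199) and from 135 to 168 CPM in 2-mo WT (median 157). Again the groups did not overlap, with a log2 fold change of 0.37 ± 0.09 (SE; adjusted p = 0.00239), or 1.29-fold. Hspd1 did not pass when only HGPS mice 4 to 6 were compared with 2-mo WT (log2 fold change 0.25, adjusted p = 0.0861), and Hspe1 did (0.53, adjusted p = 0.00339). Hspe1 (chr1:55088132-55091307, plus strand) and Hspd1 (chr1:55077835-55088243, minus strand) overlap at their 5′ ends by the GENCODE M21 annotation. The library kit keeps the strand, but whether the counting used it is not stated.

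Markers of other tissues moved with these results. All 5 brown fat markers rose in HGPS, with a summed level of 217 to 1394 CPM against 16.2 to 441 in 2-mo WT, and 3 of 4 white fat markers rose (summed level 218 to 741 against 56.2 to 283 CPM). All 5 macrophage markers (448 to 657 against 259 to 381 CPM) and all 5 cell cycle markers (29.7 to 54.5 against 8.44 to 14.9 CPM) rose as well. Smooth muscle markers fell in 5 of 6 cases (19397 to 27187 against 29327 to 37790 CPM), and 4 of 6 fibroblast markers fell (1912 to 2562 against 2942 to 3303 CPM). Of the other lists, 1 of 5 endothelial markers, 1 of the 4 skeletal muscle markers tested and 1 of the 2 nerve markers tested rose, 1 skeletal muscle marker fell, and none of 5 erythroid markers passed. No marker of these lists was at 0 in all 18 mice. With the brown fat and skeletal muscle scores as covariates, the Hspe1 log2 fold change was 0.70 (adjusted p = 0.00289) and that of Hspd1 0.35 (adjusted p = 0.0641). With the smooth muscle and fibroblast scores as covariates they were 0.38 (adjusted p = 0.636) and 0.01 (adjusted p = 0.992), and since the summed smooth muscle level did not overlap between the groups, that score and the genotype cannot be told apart.

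Hspa1a, the stress-inducible HSP70, ranged from 40.3 to 266 CPM in HGPS (median 58.7) and from 84.7 to 505 CPM in 2-mo WT (median 179). The 2 groups overlapped, since HGPS mice 4 and 6 lay above the lowest 2-mo WT mouse and the highest HGPS mouse lay above 4 of the 6 WT mice. The log2 fold change was -1.34 ± 0.49 (SE; adjusted p = 0.0342). An exact permutation test gave p = 0.0498 before adjustment and 0.135 after adjustment over the 10 members. Its near copy Hspa1b ranged from 36.4 to 278 CPM in HGPS (median 53.9) and from 59.6 to 494 CPM in 2-mo WT (median 142). Hspa1b differed by -1.19 ± 0.52 on the log2 scale (SE; adjusted p = 0.0750) and did not pass. Dnajb1, the J-domain partner of the inducible HSP70s, ranged from 36.3 to 61.9 CPM in HGPS (median 47.4) and from 36.8 to 129 CPM in 2-mo WT (median 73.2). It fell by 0.73 ± 0.27 on the log2 scale (SE; adjusted p = 0.0320), and 5 of the 6 HGPS mice lay above the lowest WT mouse. The exact permutation p for Dnajb1 was 0.0541 before adjustment and 0.135 after adjustment over the 10 members.

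The calls of Hspa1a and Dnajb1 lay near the threshold. The Hspa1a call was lost when any of HGPS mice 1, 2, 3 and 5 or 2-mo WT mice 4 and 6 was left out (adjusted p = 0.0682 to 0.110), and its log2 fold change then lay between -1.24 and -0.99. Leaving out HGPS mouse 6 moved it to -1.97 (adjusted p = 0.00182). The Dnajb1 call was lost without HGPS mouse 1, 2 or 3 or 2-mo WT mouse 4 or 6 (adjusted p = 0.0521 to 0.101), with log2 fold changes of -0.73 to -0.54. The Hspa1a call was also lost with the 2 groups fitted alone (-1.34, adjusted p = 0.0525), and the Dnajb1 call with limma-voom (-0.63, adjusted p = 0.0594). Hspa1b passed without HGPS mouse 6 (log2 fold change -1.93, adjusted p = 0.00295), 2-mo WT mouse 1 (-1.38, adjusted p = 0.0385) or 2-mo WT mouse 2 (-1.37, adjusted p = 0.0452), and its difference shrank without 2-mo WT mouse 4 (-0.97, adjusted p = 0.166) or 6 (-0.74, adjusted p = 0.258). With the brown fat and skeletal muscle scores as covariates, Hspa1a differed by -0.45 (adjusted p = 0.647), Hspa1b by -0.03 (adjusted p = 0.983) and Dnajb1 by 0.0023 (adjusted p = 0.998). With the reads of Hspa1a and Hspa1b added up as 1 gene, the log2 fold change was -1.26 (adjusted p = 0.0498). In the GENCODE M21 transcripts, 63.8% of the 31-base stretches of Hspa1a also occur in Hspa1b and 12.1% in Hspa1l, so the split of reads among these genes is uncertain. Hspa1a also overlaps Gm20481 on the other strand.

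Within the HGPS group, 4 of the 10 members were separated by sample number. All 3 mice numbered 48 to 50 lay above all 3 numbered 19 to 23 for Hspa1a, Dnajb1, Hsp90aa1 and Bag3. For Hspa1a the difference in mean log2 CPM was 1.40, for Dnajb1 0.39, for Hsp90aa1 0.28 and for Bag3 0.23. Each gave an exact permutation p of 0.1, the smallest that 3 against 3 mice allow. For the other 6 members, Hspa1b among them, the 2 sets of 3 mice overlapped. In the same sense, 8.15% of all 15210 genes had the 3 mice of higher number above the other 3. Against 2-mo WT, whose numbers are 41 to 46, HGPS mice 48 to 50 alone gave a Hspa1a log2 fold change of -0.75 (adjusted p = 0.351), and HGPS mice 19 to 23 alone gave -2.39 (adjusted p = 0.00251). For Dnajb1 the same fits gave -0.56 (adjusted p = 0.252) and -0.95 (adjusted p = 0.0450). The part of the sample number in these differences was not tested.

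**Figure D2:**
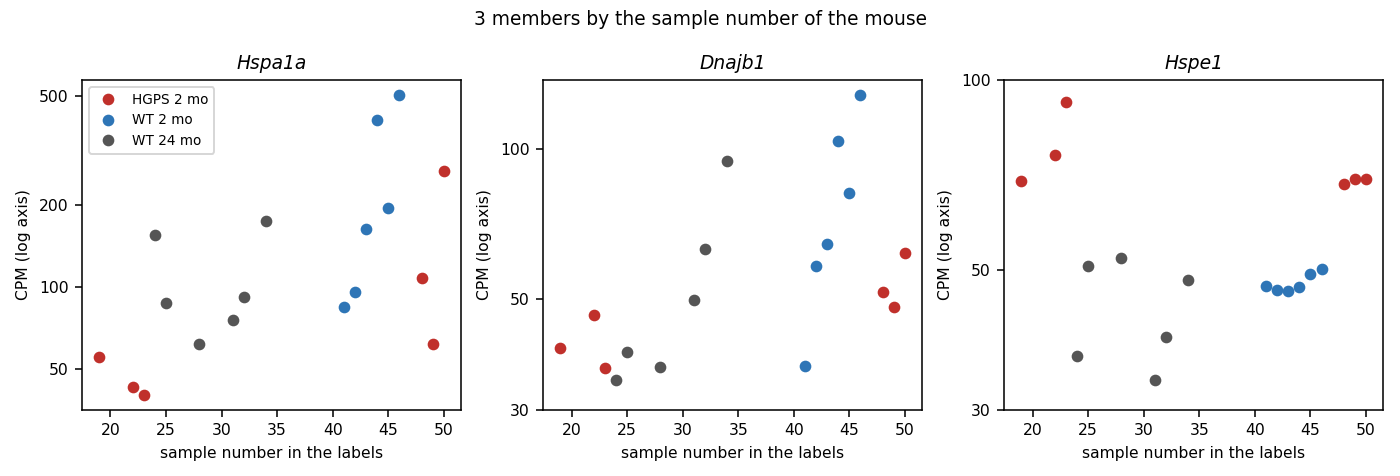
Hspa1a, Dnajb1 and Hspe1 in CPM (vertical axis, log scale) against the sample number given in the labels (horizontal axis), 1 point per mouse. HGPS mice numbered 19 to 23 lie below those numbered 48 to 50 for Hspa1a and Dnajb1, whereas for Hspe1 all HGPS points lie above all WT points.

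The other 5 cytosolic members were not separated between HGPS and 2-mo WT. Hspa8 ranged from 1711 to 3035 CPM in HGPS and from 1256 to 2788 CPM in 2-mo WT, a log2 fold change of 0.14 (95% interval -0.26 to 0.53). Hsp90aa1 ranged from 482 to 642 CPM and from 392 to 738 CPM (log2 fold change -0.01, interval -0.32 to 0.31). In neither case did the interval exclude 0. Hspb1 ranged from 210.1 to 353 CPM and from 149.6 to 458 CPM (log2 fold change -0.09, interval -0.61 to 0.43), and Hsph1, the HSP110 exchange factor, from 70.3 to 112 CPM and from 60.5 to 160.0 CPM (-0.03, interval -0.43 to 0.36). Bag3, the co-chaperone that links HSP70 to small heat shock proteins and to autophagy in muscle, ranged from 34.8 to 52.9 CPM and from 33.9 to 69.8 CPM (-0.23, interval -0.55 to 0.09). For each of the 8 members other than Hspd1 and Hspe1, the 2-mo WT group spread more widely than the HGPS group between its lowest and highest mouse in CPM, and its highest mouse was the 95-d one. Relative to the mean the order turned for Hspa1a, with a coefficient of variation of 90.7% in HGPS and 71.9% in 2-mo WT, and for Hspa1b (100.4% and 83.4%).

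In 24-mo WT against 2-mo WT, the comparison that asks about natural aging, none of the 10 members passed edgeR's test. Among all genes, 6.29% were higher and 5.38% lower, 2% passed the cut-offs of the study, and the groups did not overlap for 6.28%; none of the members met either of these last 2 conditions. Before adjustment, 4 members had a p under 0.05: Hspa1a, Hspa1b and Dnajb1, which were lower at 24 mo, and Hsph1, which was higher. Hsph1 ranged from 102 to 172 CPM at 24 mo (median 143) and from 60.5 to 160.0 CPM at 2 mo (median 86.7), a log2 fold change of 0.54 ± 0.19 (SE; adjusted p = 0.0666). Of the 2-mo WT mice, 4 lay below every 24-mo mouse, and the 95-d one was above 5 of the 6. Without that mouse the Hsph1 log2 fold change was 0.75 (adjusted p = 0.00341), and without 24-mo WT mouse 4 it was 0.62 (adjusted p = 0.0436). DESeq2 gave an adjusted p of 0.0288 for it and limma-voom 0.0411. Hspa1a ranged from 62.1 to 174 CPM at 24 mo (log2 fold change -1.16 ± 0.49 against 2-mo WT, SE; adjusted p = 0.137) and Hspa1b from 64.6 to 141 CPM (-1.12 ± 0.52; adjusted p = 0.189). Dnajb1 ranged from 34.4 to 94.7 CPM at 24 mo (-0.57 ± 0.27; adjusted p = 0.184), and passed without 24-mo WT mouse 6, its highest (-0.82, adjusted p = 0.0385). The remaining 6 members had log2 fold changes between -0.26 and 0.19.

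**Figure D3:**
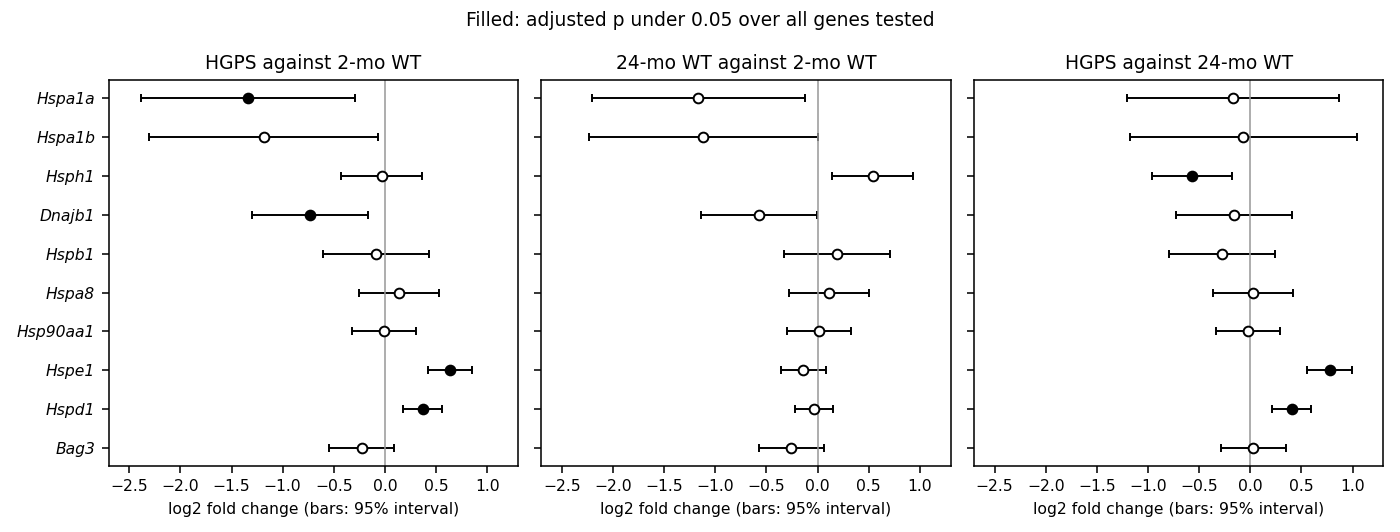
Log2 fold change of each heat shock chaperone in the 3 comparisons (horizontal axis), with 95% intervals built from the SE and 15 residual degrees of freedom. Filled points have an adjusted p under 0.05 in edgeR's test over all genes tested. Hspe1 and Hspd1 are filled and to the right of 0 in both comparisons that hold HGPS, and no member is filled in 24-mo WT against 2-mo WT.

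HGPS against 24-mo WT differs in both age and genotype, and it also tests whether the 2 effects against 2-mo WT differ, since both share the 2-mo WT mice. Hspe1 and Hspd1 were higher in HGPS and Hsph1 was lower. Among all genes, 23.8% were higher and 23.6% lower, 12.1% passed the cut-offs of the study as Hspe1 alone did among the members, and the groups did not overlap for 22.2% of genes and for 1 member, Hspe1. Hspe1 lay between 33.4 and 52.3 CPM in 24-mo WT, below every HGPS mouse, with a log2 fold change of 0.78 ± 0.10 (SE; adjusted p = 6.01e-06). Hspd1 lay between 131 and 174 CPM in 24-mo WT, so that 1 of its mice lay above the lowest HGPS mouse (0.41 ± 0.09, SE; adjusted p = 0.00095). Hsph1 fell by 0.57 ± 0.19 on the log2 scale (SE; adjusted p = 0.0164), and 4 of the 6 HGPS mice lay below every 24-mo WT mouse. These 3 calls held in each of the 18 fits that left out 1 mouse, while with HGPS mice 4 to 6 alone Hsph1 did not pass (-0.50, adjusted p = 0.115). Markers moved in this comparison too: all 5 brown fat, all 5 macrophage and all 5 cell cycle markers were higher in HGPS, and 5 of 6 smooth muscle markers were lower. With the brown fat and skeletal muscle scores as covariates Hspe1 passed (0.69, adjusted p = 0.00296), and Hspd1 (0.32, adjusted p = 0.0891) and Hsph1 (-0.23, adjusted p = 0.553) did not. With the smooth muscle and fibroblast scores none of the 3 passed, at 0.54 for Hspe1, 0.05 for Hspd1 and -0.03 for Hsph1 (adjusted p = 0.376 to 0.987). For Hspa1a, Hspa1b and Dnajb1 the log2 fold changes were -0.17, -0.07 and -0.16, with 95% intervals of -1.20 to 0.86, -1.18 to 1.04 and -0.73 to 0.41.

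The members varied together from mouse to mouse. With the group means removed, 29 of the 45 pairs of members were correlated over the 18 mice (Pearson, permutation within groups with 100000 resamples, adjusted p under 0.05 over the 45 pairs), and all 29 correlations were positive. How many pairs of other genes would pass was not computed, so the count does not set the members apart from genes at large. The 8 members other than Hspd1 and Hspe1 made up 26 of the 29 pairs, out of 28 possible. Over all 28 of these pairs r ran from 0.54 to 0.98, the highest for Hspa1a with Hspa1b, which share sequence. Hspa8 and Hsp90aa1 gave r = 0.94 (adjusted permutation p = 0.000225) and rho = 0.91 (adjusted permutation p = 0.0003), and leaving out the 2 mice most distant from the Hspa8 median gave r = 0.91. Hspe1 and Hspd1 gave r = 0.78 (adjusted permutation p = 0.00784) and rho = 0.81 (adjusted permutation p = 0.00957), and the same step for Hspe1 gave r = 0.80. Of the 16 pairs that joined Hspe1 or Hspd1 to one of the other 8, 2 passed. Within groups such pairs could differ in sign. Hspe1 with Hspa8 gave r = -0.67 in HGPS, 0.74 in 2-mo WT and 0.97 in 24-mo WT. Hspe1 with Hspa1a gave -0.54, 0.59 and -0.12 in the same order. With rank correlations 19 of the 45 pairs passed, and without the 2 farthest mice 12 did. Of the 29 pairs that passed, 22 kept an r above 0.5 without those mice, for example Hspb1 with Hspa8 (0.90 with all mice, 0.89 without).

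The extreme mice of a group were often the same for several members. The 95-d WT mouse was the highest of the 2-mo WT mice for 10 of 10 members, and 2-mo WT mouse 1 was the lowest for 8. HGPS mouse 6 was the highest of its group for 8 and HGPS mouse 3 the lowest for 7. How often the same mice were the extremes over all genes was not computed, so these counts are not particular to the members. In 24-mo WT, mice 2, 3 and 6 held the 3 highest values of Hspa8, Hsp90aa1, Hspb1, Hsph1, Hspe1 and Hspd1, while the highest Hspa1a values came from mice 1 and 6. Within groups of 6, 45 of 45 pairs had a positive r in 2-mo WT, 30 in HGPS and 29 in 24-mo WT. The pairs of 1 group share their libraries and their scaling, and the differences between groups were not tested.

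**Figure D4:**
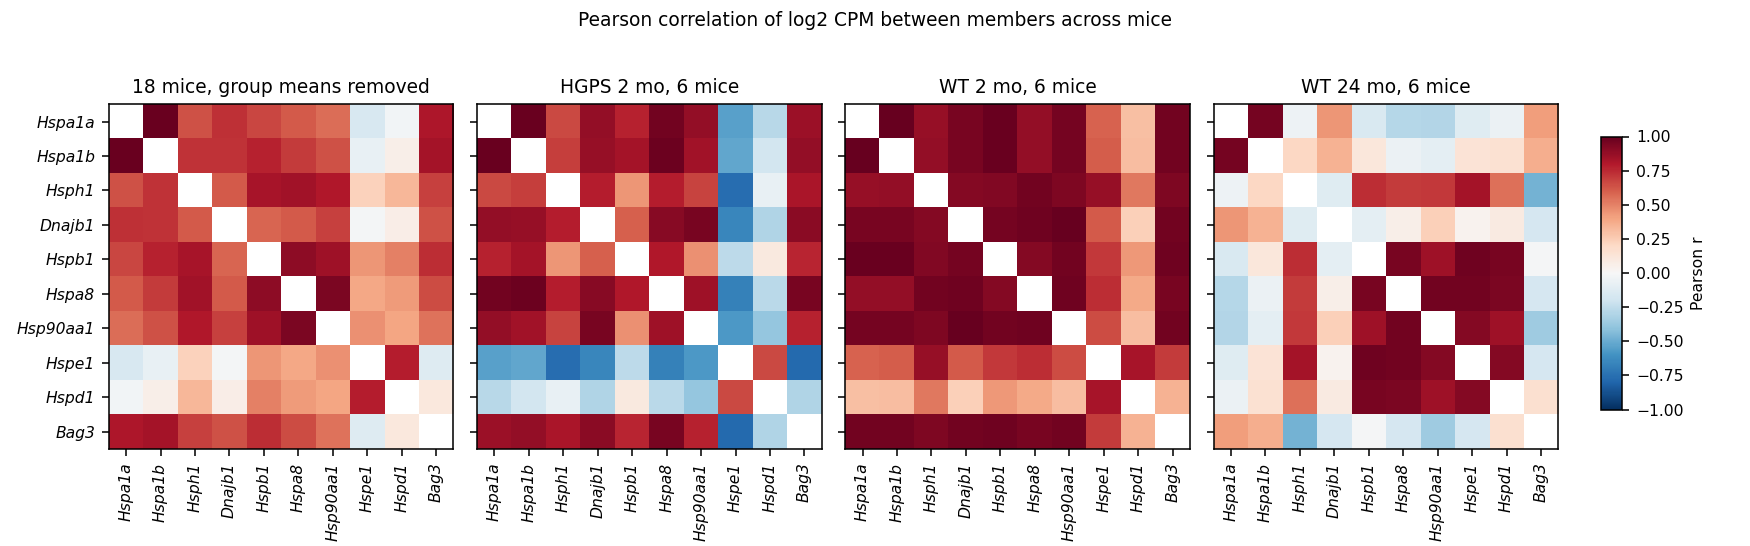
Pearson correlation of log2 CPM for every pair of the 10 heat shock chaperones (colour scale from -1, blue, to 1, red), over 18 mice with the group means removed and within each group of 6. The 8 cytosolic members form a red block over the 18 mice and in both groups at 2 mo. Hspe1 is blue against all 8 in HGPS but red against Hsph1, Hspb1, Hspa8 and Hsp90aa1 in 24-mo WT. In 24-mo WT Hspa1a and Hspa1b are pale or light blue against Hspa8 and Hsp90aa1.

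The genes whose deviations were most like the mean of the members were Hsp90ab1, the constitutive cytosolic HSP90 (r = 0.88 over 18 mice), Dnaja1 (0.87), Dnaja4 (0.85), Lrrc32 (0.85), Gfod1 (0.83), Tnfrsf12a (0.83), Bmp2 (0.83) and Znfx1 (0.83), the top 8 of 10698 genes ranked. These 8 stayed the top 8 when Hspa8 was left out of the mean, a step that leaves most of the mean unchanged. With the mean of Hspa1a, Hspa1b and Dnajb1 alone, none of the 8 was shared, and the first 4 were Ccn2 (0.89), Peli1 (0.87), Tent5a (0.85) and Xirp1 (0.85).

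The wider chaperone system gives the setting of the 10 members, and the share passing in each list can be read against 22% higher and 21.2% lower among all genes. In HGPS against 2-mo WT the mitochondrial list and the list of the cytosolic chaperonin and prefoldin held genes that rose and none that fell. The list of 5 heat shock factors and regulators held 1 that rose and none that fell. Of 10 other mitochondrial chaperones and proteases 6 rose and none fell, with a median log2 fold change of 0.22. Hspa9, the mitochondrial HSP70, was at 388 ± 55.3 CPM in HGPS and 223 ± 20.1 in 2-mo WT (log2 fold change 0.80, adjusted p = 7.32e-07). Its J-domain partner Dnaja3 rose from 40.9 ± 3.73 to 62.9 ± 13.8 CPM (0.62, adjusted p = 0.000229). With the brown fat and skeletal muscle scores as covariates Dnaja3 did not pass (0.33, adjusted p = 0.0768), nor did Dnaja3 (0.01, adjusted p = 0.993) or Hspa9 (0.19, adjusted p = 0.720) with the smooth muscle and fibroblast scores. In 24-mo WT against 2-mo WT none of the 10 passed.

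Of 11 other HSP70 and HSP110 genes 5 rose and 2 fell. Hspa5, the HSP70 of the endoplasmic reticulum, had the largest change of this list, from 636 ± 82.3 to 1659 ± 272 CPM (log2 fold change 1.38, adjusted p = 5.88e-08). Hspa1l, which lies beside Hspa1a and shares sequence with it, fell (log2 fold change -0.82, adjusted p = 0.00677), and did not pass with the brown fat and skeletal muscle scores as covariates (-0.34, adjusted p = 0.426). Of 15 other J-domain genes 4 rose, among them Dnajb9 of the endoplasmic reticulum (0.90, adjusted p = 5.28e-08), and 2 fell, among them Dnajb5 (-0.93, adjusted p = 1.72e-05). Of 14 other HSP90 chaperones and co-chaperones 3 rose and 1 fell. Hsp90b1, the HSP90 of the endoplasmic reticulum, rose (log2 fold change 0.69, adjusted p = 2.07e-07). Fkbp5, which is induced by glucocorticoids, rose by 1.66 on the log2 scale (adjusted p = 0.0309), a call lost without any of HGPS mice 1 and 6 and 2-mo WT mice 1 to 4 (adjusted p = 0.0521 to 0.0656). Of 14 genes of the cytosolic chaperonin and prefoldin 9 rose and none fell, by small steps: Cct8 by 0.28 (adjusted p = 0.00102) and Pfdn4 by 0.36 (adjusted p = 0.0150).

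Among 9 BAG domain and other exchange factors, 3 rose and 1 fell. Bag1 rose from 93.1 ± 4.76 to 145 ± 14.1 CPM (log2 fold change 0.64, adjusted p = 6.67e-07) and Bag2 fell from 19.7 ± 2.91 to 13.1 ± 1.77 CPM (-0.58, adjusted p = 0.000333). Of 6 partners of Bag3, 1 rose and 3 fell. Synpo2, an actin-binding protein of muscle, fell from 1176 ± 93.7 to 570.5 ± 97.4 CPM (-1.04, adjusted p = 2.99e-06), and the small heat shock protein Hspb6 fell as well (-0.85, adjusted p = 1.90e-06), beside the lower smooth muscle markers given above. Of the 5 other small heat shock proteins tested, of 6 listed, Cryab rose (0.40, adjusted p = 0.00269) and Hspb6 fell. The lists share genes, so their counts are not independent.

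Hsf1 itself was at 19.9 ± 1.63 CPM in HGPS, 22.1 ± 2.20 in 2-mo WT and 26.5 ± 2.41 in 24-mo WT. It was lower in HGPS than in 24-mo WT (log2 fold change -0.42, adjusted p = 0.000236) and higher in 24-mo WT than in 2-mo WT (0.26, adjusted p = 0.0361), the latter lost without any of 2-mo WT mice 1 to 4 or 24-mo WT mice 1, 2 and 4 (adjusted p = 0.0583 to 0.0825). Hsbp1, a protein that binds heat shock factors, rose in HGPS against 2-mo WT (0.29, adjusted p = 0.000886). Of 15 other known targets of Hsf1, 3 rose and 1 fell in HGPS against 2-mo WT, with a median log2 fold change of 0.07. The risers were Hspa4l (0.59, adjusted p = 0.00029), Zfand2a (0.59, adjusted p = 1.97e-05) and Cryab.

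**Figure D5:**
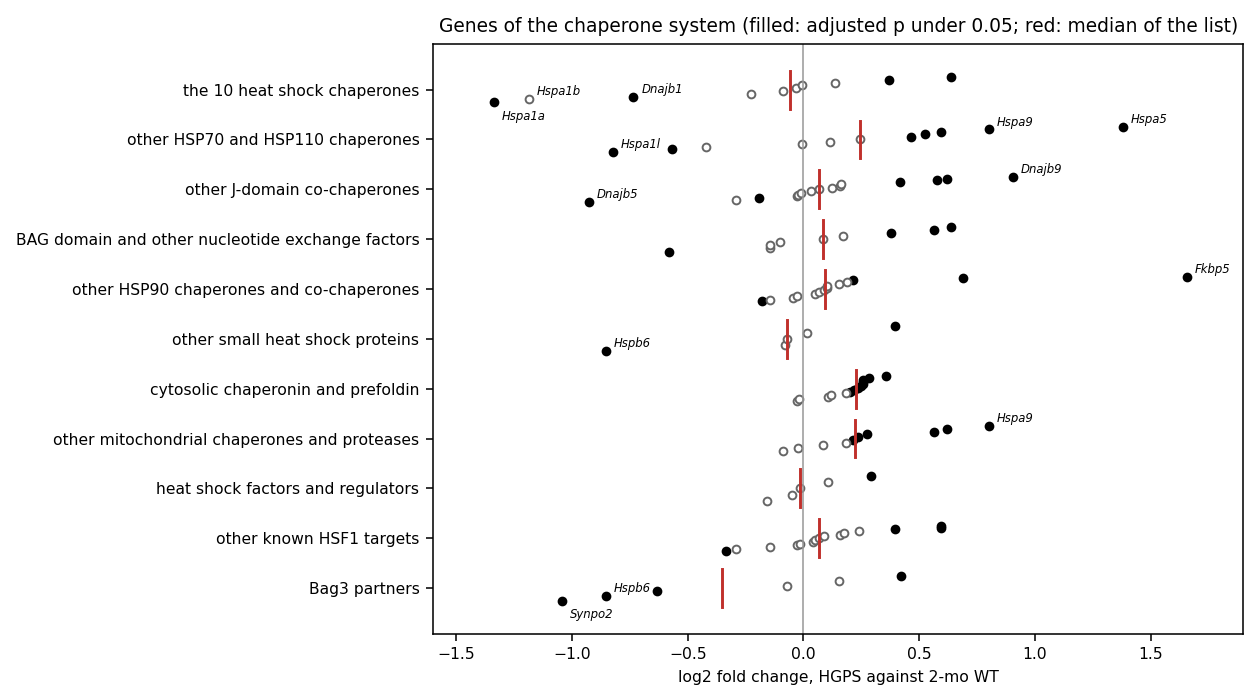
Log2 fold change in HGPS against 2-mo WT (horizontal axis) of the genes in 11 lists of the chaperone system; each point is a gene, filled where the adjusted p is under 0.05, and the red line is the median of the list. Filled points lie only to the right of 0 for the mitochondrial list, the cytosolic chaperonin and prefoldin, and the heat shock factors and regulators (1 filled point). For the 10 heat shock chaperones they lie on both sides.

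In 24-mo WT against 2-mo WT the lists can be read against 6.29% higher and 5.38% lower among all genes. Of 5 heat shock factors and regulators 2 rose, and of 15 other Hsf1 targets 1 rose and 2 fell. Of the 11 other HSP70 and HSP110 genes, Hspa4l rose (log2 fold change 0.42, adjusted p = 0.0176) and Hspa1l was among 2 that fell (-0.92, adjusted p = 0.0123). Of the 15 other J-domain genes 2 rose and 2 fell, with Dnajb2 up by 0.42 (adjusted p = 0.00659). Serpinh1, the collagen chaperone of the endoplasmic reticulum and a target of Hsf1, fell from 1035 ± 100.3 CPM to 639 ± 55.7 CPM (-0.70, adjusted p = 3.73e-05), and in HGPS it was above 24-mo WT (0.87, adjusted p = 4.64e-07). Cirbp, a cold-inducible RNA-binding protein, was lower (-0.56, adjusted p = 0.0361), a call lost without 2-mo WT mouse 1, 3, 4 or 6 or 24-mo WT mouse 2, 3 or 5 (adjusted p = 0.0608 to 0.0861), and 2 clock genes were higher and none lower. No gene of the HSP90, chaperonin or exchange factor lists passed edgeR's test at 24 mo.

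Of 18 immediate early genes, which cells switch on shortly after a stimulus, 2 rose, 6 fell and 10 did not pass in HGPS against 2-mo WT, where 22% of all genes were higher and 21.2% lower. Atf3 ranged from 48.5 to 75.4 CPM in HGPS and from 103 to 290 CPM in 2-mo WT (log2 fold change -1.56, adjusted p = 0.0114), without overlap, and did not pass with the brown fat and skeletal muscle scores as covariates (-1.52, adjusted p = 0.130). In 24-mo WT against 2-mo WT, 5 immediate early genes rose and none fell (6.29% and 5.38% of all genes). In HGPS against 24-mo WT 1 rose and 10 fell (23.8% and 23.6% of all genes). Of 14 clock genes, which follow the time of day, 1 rose (Cry1, 0.82, adjusted p = 8.71e-05) and 6 fell in HGPS against 2-mo WT. In this comparison Cirbp fell by 0.51 (adjusted p = 0.0195; -0.55 and 0.108 with those scores), and Rbm3, of the same kind, did not pass. The part of these differences in the levels of Hspa1a and Dnajb1 was not tested.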

How the data were processed

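Stranded total RNA libraries, depleted of ribosomal RNA, were sequenced from whole descending aortas of 18 mice. The authors quantified transcripts with salmon and deposited estimated counts per gene, as whole numbers (GENCODE annotation, GRCm38). Whether salmon used the strand is not given in the sources used here. The submitters' processing notes also name Bowtie 0.12.2 with no role. A gene was tested if 6 or more mice had 10 counts or more (15210 of 54281), and these genes were fitted in 1 model over all 18 mice with edgeR 4.0.16 (R 4.3.3; quasi-likelihood test, TMM, 15 residual degrees of freedom, Benjamini-Hochberg adjustment). The SE is the log2 fold change over the root of F. Exact permutation tests were two-sided. On simulated counts for HGPS against 2-mo WT (15210 genes), 59% of 100 genes changed 1.5-fold and 79% of 100 changed 2-fold were recovered. No other genes were changed there, whereas in the data 22% were higher and 21.2% lower. The adjustment was therefore stricter in the simulation, and these shares do not give the power of the comparison itself. DESeq2 1.42.0, limma 3.58.1, other scalings and filters, covariates and left-out mice were alternatives. Groups come from the labels. Whether each sample number marks anything beyond an order is not stated.

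The members and lists were chosen with earlier results of these data known. From each list, the 2 genes with the largest change among those that passed with a mean of at least 100 counts could be named in each comparison, with Hsf1 always; other named list genes were chosen after their values were seen. The 8 genes most like the members were ranked by Pearson's r over 18 mice.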

Additional observations from a re-analysis of the deposited data

Results flagged for a closer look

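Over 30 sets of 6 mice (10 members in 3 groups), 4 held a mouse far from the other 5 in CPM by Dixon's criterion at the 95% level (the gap to the nearest mouse over the range of the group). The chance rate of about 1 in 20 holds for independent sets of normally distributed values. The members share their mice and vary together, so 4 of 30 cannot be set against that rate. HGPS mouse 6 was high for Hspa1a (266 CPM, next 108 CPM, gap 0.699 of the range), Hspa1b (278 CPM, next 88.5 CPM, 0.785) and Hspb1 (353 CPM, next 246 CPM, 0.748). HGPS mouse 3 was high for Hspe1 (92.5 CPM, next 76.1 CPM, 0.684), and it was the lowest of its group for 7 other members. Hspa1a and Hspa1b share sequence, so their values in HGPS mouse 6 are not independent.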

How the results depend on the processing

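Members called in 24-mo WT against 2-mo WT numbered 0 with edgeR, 1 with DESeq2 and 1 with limma-voom, and 0 to 1 with a mouse left out. In HGPS against 2-mo WT, 4 members passed; 2 did with the brown fat and skeletal muscle scores as covariates (Hspe1 of the 4, and Hsp90aa1, which had not passed), 1 with HGPS mice 48 to 50 alone, 0 with the smooth muscle and fibroblast scores and 0 when tested against a 1.5-fold change, and 2 to 5 with a mouse left out. The 1 member past the cut-offs of the study became 0 under each of these 4 settings, and 0 to 1 with a mouse left out. In HGPS against 24-mo WT, 3 passed; 1 did with the brown fat scores, 0 with the smooth muscle scores and 0 against 1.5-fold, and the 1 member past the study's cut-offs became 0 in each. Related pairs numbered 29, or 19 by Spearman and 12 without the 2 farthest mice. Among values that passed in either fit, directions turned under the brown fat scores in HGPS against 2-mo WT for Dnajb1 (0.0023) and Hsp90aa1 (0.49, adjusted p = 0.0362), and under the smooth muscle scores for Dbp (0.46 against 2-mo WT, 0.21 against 24-mo WT) and Hspb6 (0.26 against 24-mo WT). Values that passed in neither fit changed sign as well, under the brown fat scores for Bag3, Hspb1 and Hsph1 against 2-mo WT and for Hspa1a (1.09), Hspa1b (1.31), Dnajb1, Hspb1 and Hsp90aa1 against 24-mo WT. Of 59 values named for list genes, 22 lost their call with the brown fat scores. With the smooth muscle scores 45 lost it, a further 3 (those of Dbp and Hspb6) turned direction without passing, and 11 kept it. The cause was not tested.

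Whether the replicate numbers pair the mice is not known. Deviations of same-numbered mice correlated at -0.0247 to 0.172 in HGPS against 2-mo WT, above 0.1 in 2 of 6 pairs. With a replicate block, 2 members passed in 24-mo WT against 2-mo WT, Dnajb1 (-0.57, adjusted p = 0.0168) and Hsph1 (0.59, adjusted p = 0.0487), and Hspa1b passed in HGPS against 2-mo WT (-1.25, adjusted p = 0.0112).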
